A study of Mus musculus with 6 samples.

Results

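The 10 genes described here are the keratins Krt5, Krt14, Krt8, Krt18 and Krt19, the tight junction gene Cldn7, and the transcription factors Foxa1, Trp63, Elf5 and Esr1, measured in bulk RNA of 6 C0321 tumors. They were chosen by symbol, as genes of the mammary epithelium present in the deposited table, and all 10 of them were among its 13730 gene symbols. Their values in these tumors were known when they were chosen, so the pattern across tumors is given as a description. C0321 is a mouse triple-negative breast cancer (TNBC) line of mesenchymal, claudin-low character, derived from FVB mice with a conditional deletion of Lunatic Fringe (Lfng). The driver of the deletion is not given in the sources used here, and every tumor in both groups came from this 1 line. Its cells were placed with Matrigel in the mammary fat pad of female FVB mice 6 to 10 weeks old, a site that also holds the ducts and adipocytes of the host. The 3 Control tumors came from mice without drug, given saline or vehicle depending on the source, and the 3 SS tumors from mice given SS by mouth at 60 mg/kg each day for 14 days once a mass could be felt. SS is sulindac sulfide in the paper, whereas the sample labels name a sulfate. Samples are numbered 1 to 3 within each group, and nothing in the labels ties a Control tumor to the SS tumor of the same number.

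Keratins are the intermediate filament proteins of epithelial cells and assemble as pairs of a type II and a type I chain. In the mammary gland Krt5 and Krt14 are the pair of the basal, myoepithelial layer, Krt8 and Krt18 that of the luminal cells, and Krt19 a further type I keratin of luminal cells. Foxa1 and Esr1, which encodes the estrogen receptor, act in hormone-sensing luminal cells, Elf5 in luminal progenitor and alveolar cells, and Trp63 in basal cells. Claudin-low tumors are named for their low claudins and other junction genes and their high mesenchymal genes.

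The genes lie at separate loci on GRCm38 (RefSeq). The basal gene Krt5 (chr15:101707069-101712905, minus strand) shares a chromosome with the neighbours Krt8 (chr15:101996711-102004342, minus strand) and Krt18 (chr15:102028216-102032026, plus strand), which point away from each other with 23873 bases between them. Krt19 (chr11:100140810-100145926, minus strand) and Krt14 (chr11:100203162-100207510, minus strand) are 57235 bases apart, and Cldn7 (chr11:69964779-69967886, plus strand) is on the same chromosome. The transcription factor genes are Foxa1 (chr12:57540628-57548029, minus strand), Trp63 (chr16:25683763-25892088, plus strand), Elf5 (chr2:103412098-103450989, plus strand) and Esr1 (chr10:4611989-5005633, plus strand).

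Sequence before the start is shown for the luminal pair Krt8 and Krt18, for Krt5 and Foxa1, whose levels parted the tumors most plainly, and for the upstream start of Cldn7, a start the tumors used unequally. The sequences are those of RefSeq on GRCm38.p6, read 5′ to 3′ on the strand of the gene. Each comes from the 250 bases before a RefSeq start, less the bases next to the start that GENCODE places in an exon of the gene (140 for Krt8, 36 for Krt18 and 10 for Foxa1). For Foxa1 the start meant is at base 57546111, inside the gene span given above, since longer models begin further upstream. The measured Foxa1 transcript begins at base 57546121, next to the stretch shown. Capitals mark matches, on either strand, to the E-box CAGGTG, a sequence that repressors of epithelial genes such as Zeb1 and Snail can bind, or to the GC box GGGCGG. The TATA box TATAAA was searched as well.
Krt8, chr15:102004483-102004592: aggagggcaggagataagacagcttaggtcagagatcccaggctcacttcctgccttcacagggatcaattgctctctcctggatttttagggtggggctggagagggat
Krt18, chr15:102027966-102028179: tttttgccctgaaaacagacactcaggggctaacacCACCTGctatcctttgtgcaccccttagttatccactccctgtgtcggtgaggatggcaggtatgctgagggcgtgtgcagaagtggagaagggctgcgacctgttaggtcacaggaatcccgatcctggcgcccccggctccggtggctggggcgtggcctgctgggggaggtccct
Krt5, chr15:101712906-101713155: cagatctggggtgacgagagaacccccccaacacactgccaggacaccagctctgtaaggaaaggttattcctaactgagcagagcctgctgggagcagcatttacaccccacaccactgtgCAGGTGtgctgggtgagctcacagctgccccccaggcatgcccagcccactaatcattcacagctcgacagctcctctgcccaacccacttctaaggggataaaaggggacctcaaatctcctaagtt
Foxa1, chr12:57546122-57546361: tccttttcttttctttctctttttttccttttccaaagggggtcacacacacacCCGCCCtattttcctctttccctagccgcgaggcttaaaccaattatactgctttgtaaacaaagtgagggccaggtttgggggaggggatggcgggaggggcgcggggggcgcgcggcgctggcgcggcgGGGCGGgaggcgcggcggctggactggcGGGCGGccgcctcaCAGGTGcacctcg
Cldn7, upstream start, chr11:69964529-69964778: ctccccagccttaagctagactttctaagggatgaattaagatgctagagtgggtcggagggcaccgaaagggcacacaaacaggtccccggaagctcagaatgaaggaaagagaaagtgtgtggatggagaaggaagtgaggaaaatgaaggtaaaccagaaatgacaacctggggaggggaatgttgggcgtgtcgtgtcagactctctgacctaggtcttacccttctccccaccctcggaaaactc
RefSeq windows were at hand for 11 starts of 8 members, and not for Krt19 or Trp63. Over the whole 250 bases the E-box matched in 6 of the 11 windows, beside 17.2% of the 32851 RefSeq windows of that length. It matched once before Krt8, Krt18, Krt5 and Foxa1, with its first base 111, 214, 128 and 23 bases before the start, of which the Krt8 match lies outside the stretch shown. It matched at 97 and 57 bases before the internal start of Cldn7 and at 3 places before the upstream start of Elf5. There was none before the upstream start of Cldn7, the internal start of Elf5, both starts of Esr1 or the internal start of Krt14. The GC box, present in 32.7% of all windows, matched in 2 of the 11, and the TATA box, present in 12.4%, in 0. The matches describe letters in these windows only.

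Transcripts were summed by gene, and levels are given as CPM, counts scaled to the size of the library. Library totals ran from 8468914 to 24441522 counts, so that 3 counts, used as the floor for a gene at 0, stood for 0.123 to 0.358 CPM. Across all 10902 genes tested with edgeR's quasi-likelihood test, 0% had an adjusted p under 0.05 for SS against Control, 348 genes higher and 345 lower had an unadjusted p under 0.05, and DESeq2 called 36 genes after adjustment. No member passed adjustment. The labels do not say that each tumor came from a mouse of its own, and p-values then measure only the spread between these samples. Lfng was at 4.65 to 6.40 CPM in the 6 tumors, which hold host cells as well as the line.

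**Figure D1:**
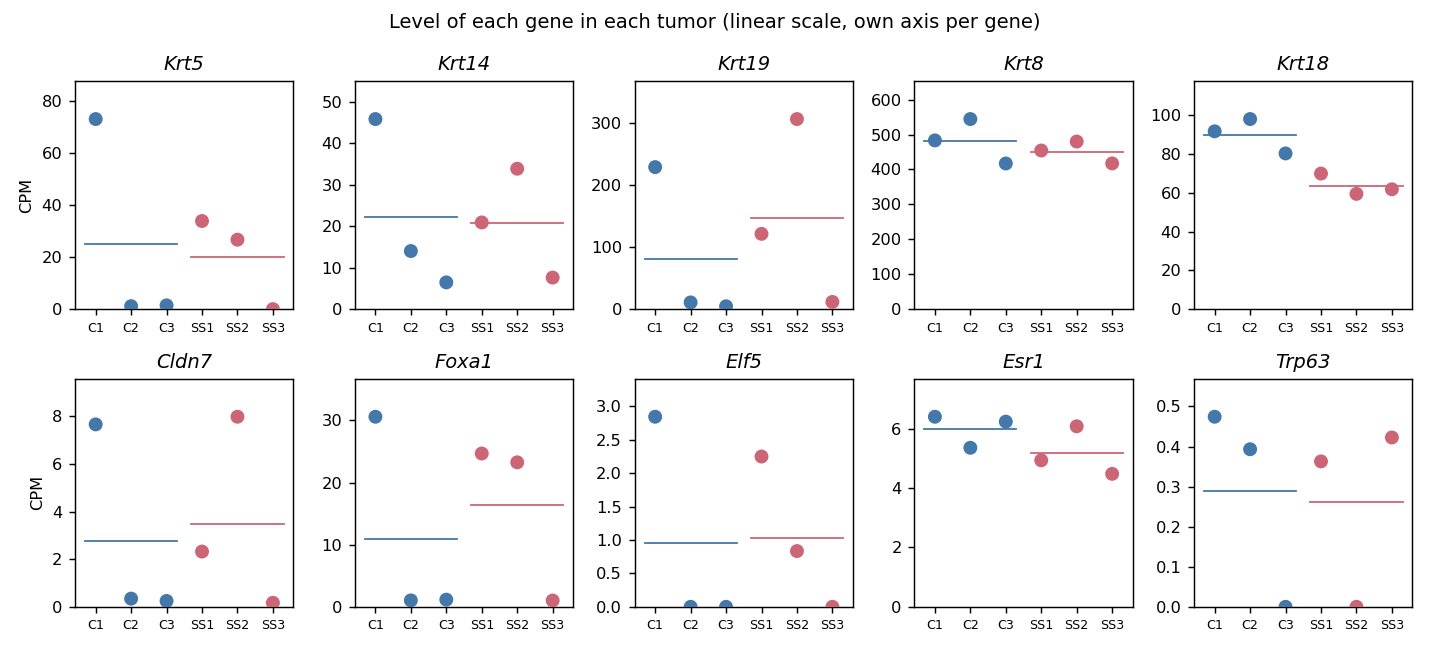
Level of each of the 10 genes in CPM (vertical axis, linear, from 0 in each panel) in the 3 Control tumors (blue, C1 to C3) and the 3 SS tumors (red), 1 point a tumor, with a line at each group's mean. Krt8, Krt18 and Esr1 were within 1.65-fold of themselves across tumors, whereas Krt5 went from 0 to 73.1 CPM and was high in Control tumor 1 and SS tumors 1 and 2.

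The luminal keratin Krt8 was the highest member per length, with a mean of 238 CPM per kilobase of exon over the 6 tumors. Its level was 483, 544 and 417 CPM across Control 1, 2 and 3 and 454, 480 and 417 CPM across SS 1, 2 and 3. The groups overlapped and every tumor was within 1.31-fold of every other. The log2 fold change for SS against Control was -0.096 (SE 0.121, 95% interval -0.377 to 0.184, adjusted p = 0.923), and 84.4% of genes tested varied more between tumors, by the SD of log2 CPM.

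Krt18, the type I partner of Krt8, was the member whose groups did not overlap. It was at 91.8, 98.1 and 80.4 CPM in Control and at 70.0, 59.5 and 61.9 CPM in SS, in the same order of numbers. The means were 90.1 ± 9.0 and 63.8 ± 5.49 CPM (SD, n = 3 each). Every SS tumor was therefore below every Control tumor, and the log2 fold change was -0.50 (SE 0.122, 95% interval -0.781 to -0.214, unadjusted p = 0.00387, adjusted p = 0.760). Non-overlapping groups with SS lower were seen in 6.4% of all genes tested, and an unadjusted p under 0.05 with SS lower in 3.16%. One member of the 9 tested met each of these, so the count of members was no measure of a shared change.

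The unequal behaviour of the pair could be read within each library, since a ratio of counts does not depend on the scaling. Krt8 counts were 5.27, 5.55 and 5.19 times the Krt18 counts in the Control tumors and 6.49, 8.07 and 6.75 times in the SS tumors. The mean ratio was 5.34 ± 0.189 in Control and 7.10 ± 0.845 in SS (SD, n = 3 each), with every SS tumor above every Control tumor (two-sided exact permutation p = 0.1, the smallest that 3 against 3 allows). Krt8 has a processed copy, Krt8-ps on chromosome 7, and the sources do not say how reads shared with such copies were placed. That sharing and its part in the Krt8 level were not tested.

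Krt7, the type II keratin of simple epithelia that belongs to the list of other luminal genes, was abundant in all tumors too, at 299.7, 489 and 408 CPM in Control and 331, 245 and 266 CPM in SS. Its groups overlapped, and the log2 fold change was -0.51 (SE 0.193, unadjusted p = 0.0307, adjusted p = 0.771). Krt8 to Krt7 count ratios of 1.61, 1.11 and 1.02 in Control and 1.37, 1.96 and 1.57 in SS also overlapped (exact permutation p = 0.3). Krt80 lay between 14.8 and 24.8 CPM. Of genes tested, 37.3% varied more between tumors than Krt7 and 51.6% more than Krt80. Krt8, Krt7 and Krt18 were thus abundant in each of the 6 tumors.

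Krt19 behaved otherwise. Its level was 229, 10.8 and 4.51 CPM across Control 1, 2 and 3 and 121, 306 and 11.6 CPM across SS 1, 2 and 3. Control tumor 1 and SS tumors 1 and 2 were high, the other 3 low, and each group held both kinds, over a 67.8-fold range. The fitted log2 fold change was 0.85 (SE 1.45, 95% interval -2.51 to 4.22, adjusted p = 0.935). In the 3 low tumors Krt8 counts were 50.6, 92.4 and 36.1 times those of Krt19 (Control tumors 2 and 3 and SS tumor 3), whereas in Control tumor 1, SS tumor 1 and SS tumor 2 the ratio was 2.11, 3.75 and 1.57.

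The basal type II keratin Krt5 had the widest range of the 10 genes. It was at 73.1, 1.13 and 1.44 CPM in Control tumors 1, 2 and 3, from 925, 23 and 35 counts. In SS 1, 2 and 3 it was at 33.9, 26.7 and 0 CPM, from 467, 224 and 0 counts. Control tumor 1 was at least 288-fold above SS tumor 3, taking the floor of 0.254 CPM for that tumor, and only 0.037% of genes tested varied more between tumors. The log2 fold change was -0.30 with an SE of 1.69 (adjusted p = 0.978), and its 95% interval, -4.22 to 3.61, held large changes in both directions.

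Krt14, the partner of Krt5, was at 45.8, 14.0 and 6.44 CPM in Control and at 20.9, 33.9 and 7.61 CPM in SS. The same 3 tumors were highest, but the steps were smaller, 7.12-fold from the highest to the lowest, and SS tumor 1 was close to Control tumor 2. The log2 fold change was -0.083 (SE 0.740, adjusted p = 0.986). Krt5 counts were 1.59 and 1.62 times the Krt14 counts in Control tumor 1 and SS tumor 1, 0.789 times in SS tumor 2, and 0.0807, 0.223 and 0 times in Control tumor 2, Control tumor 3 and SS tumor 3. The 2 chains of the basal pair thus did not keep 1 ratio across tumors, and Krt14 remained measurable, at 90 counts, where Krt5 had none.

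The other basal keratins measured were Krt17, Krt6a, Krt6b, Krt15 and Krt16, and they did not all have the order of Krt5. Krt17, a type I keratin of basal and stressed epithelium, was at 26.2, 2.75 and 0.164 CPM in Control and at 9.87, 24.4 and 1.27 CPM in SS. Krt6a, a type II keratin of activated and ductal epithelium, was at 25.2, 1.08 and 0 CPM in Control and at 10.3, 2.74 and 0 CPM in SS. Both had the same 3 highest tumors as Krt5, with SS tumor 2 near the top for Krt17 and far below Control tumor 1 for Krt6a. Krt6b had 6.96, 0.246 and 0 CPM in Control and 0, 0.358 and 0 CPM in SS, and was thus high in Control tumor 1. Krt15 had 2.92, 1.77 and 1.31 CPM in Control and 9.94, 1.67 and 0 CPM in SS, highest in SS tumor 1. Krt16 had 2.77, 5.55 and 3.73 CPM in Control and 4.43, 0.358 and 0 CPM in SS, highest in Control tumor 2. Krt6b failed the filter on low counts, and none of the other 4 passed the test between the groups (adjusted p from 0.760 upward over the list of other basal genes).

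Cldn7, a claudin that seals epithelial tight junctions, was low in all tumors and lowest in the same 3. Its level was 7.67, 0.344 and 0.246 CPM in Control and 2.32, 7.99 and 0.169 CPM in SS, from 97, 7 and 6 counts and 32, 67 and 2 counts. SS tumor 2 was 32.4-fold above Control tumor 3. The log2 fold change was 0.36 (SE 1.45, adjusted p = 0.970). Other genes that define the claudin-low type were also low: Cldn3 lay between 5.41 and 10.4 CPM, Cldn4 between 0.761 and 3.53 CPM, Cdh1 (E-cadherin) between 3.04 and 8.58 CPM, and Epcam between 0.041 and 2.98 CPM. The mesenchymal filament gene Vim was at 5875 to 8620 CPM and the repressor gene Zeb1 at 149 to 234 CPM. From the same mesenchymal list, Fn1 was at 4077 to 6185 CPM and Zeb2 at 631 to 768 CPM. Per kilobase of exon the lowest Vim level was 2679 CPM and the highest Cldn7 level 5.41 CPM. Some mesenchymal genes of the list were low, with Cdh2 (N-cadherin) at 2.37 to 5.21 CPM, Twist2 at 1.52 to 7.03 CPM, Snai1 at most at 1.02 CPM and Thy1 at most at 0.885 CPM. The markers were thus mixed against the claudin-low description of the line. Low claudins and high Vim, Fn1 and Zeb2 stood beside low Cdh2 and abundant Krt8, Krt7 and Krt18.

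Among the transcription factors, Foxa1, which opens chromatin for the estrogen receptor, followed the tumors of Krt5 and Krt19. It was at 30.6, 1.03 and 1.15 CPM in Control and at 24.7, 23.3 and 1.01 CPM in SS. No tumor was in between: the lowest of the high tumors had 195 counts and the highest of the low ones 28 counts. The fitted log2 fold change was 0.61 (SE 1.38, 95% interval -2.60 to 3.82, adjusted p = 0.947).

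Elf5, the factor of luminal progenitor and alveolar cells, was found at low level in the same tumors. It had 36, 0 and 0 counts in the Control tumors and 31, 7 and 0 counts in the SS tumors, that is 2.85 CPM in Control tumor 1, 2.25 CPM in SS tumor 1 and 0.835 CPM in SS tumor 2. Control tumor 1 was at least 23.1-fold above the floor of Control tumor 3. With counts of 0 in both groups the log2 fold change of 0.21 (SE 1.83, adjusted p = 0.985) depends on how zeros are treated.

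Esr1 did not follow Foxa1. Its level was 6.40, 5.36 and 6.24 CPM in Control and 4.94, 6.08 and 4.48 CPM in SS, a range of 1.43-fold with overlapping groups. The log2 fold change was -0.22 (SE 0.258, 95% interval -0.816 to 0.379, adjusted p = 0.919). These values are for the sum of the Esr1 transcripts. A noncoding transcript held 38.9%, 8.08% and 43.5% of that sum in Control and 42.9%, 67.4% and 13.0% in SS. The 1.43-fold range is thus that of the sum and not of the coding transcripts alone. Per kilobase of exon Esr1 averaged 0.720 CPM against 4.27 CPM for Foxa1. The progesterone receptor gene Pgr, which the estrogen receptor induces, was at 0 to 3.82 CPM, and Erbb2, which encodes HER2, at 17.1 to 22.4 CPM. These RNA levels bear only loosely on a triple-negative label, which is set on protein and gene amplification.

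Trp63, the p63 gene of basal cells, was near the limit of detection in every tumor. It had 6, 8 and 0 counts in Control and 5, 0 and 5 counts in SS, at most 0.474 CPM, and failed the filter on low counts, so it was not tested. Its counts came from 2 of the 8 curated transcripts, with row sums of 12.8 and 12.2 where the smallest sum in the table was 10, so that both lay just inside the threshold for being listed. Transcripts that missed it are not counted, and Krt5 at 73.1 CPM stood beside a Trp63 level of 0.474 CPM in Control tumor 1.

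**Figure D2:**
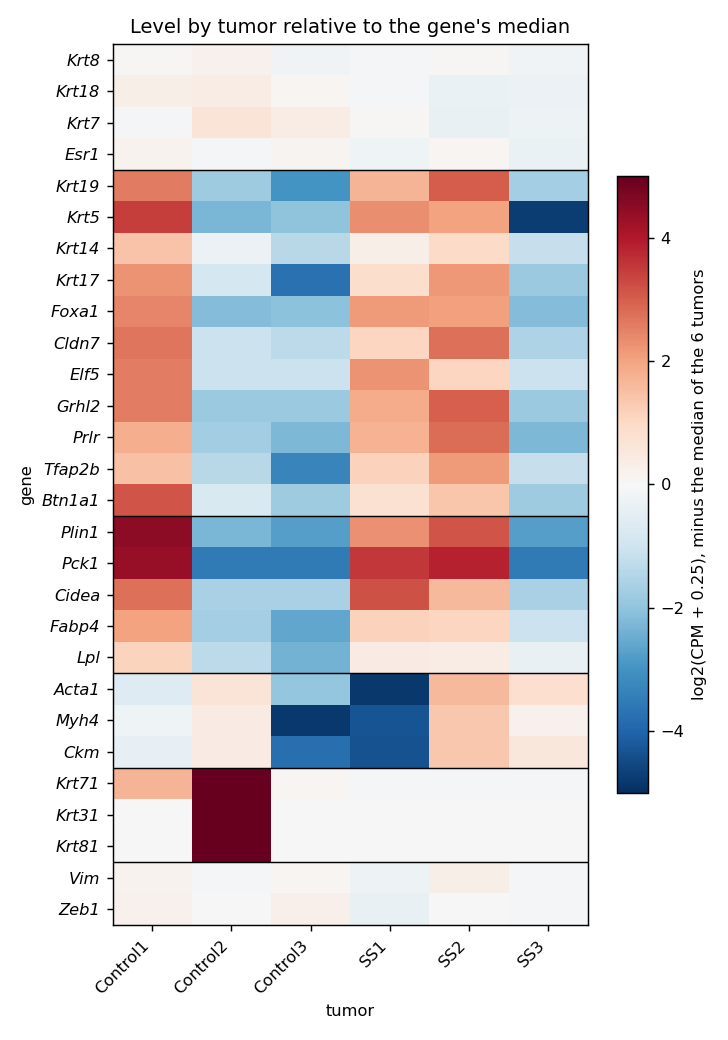
log2(CPM + 0.25) of 28 genes (rows) in the 6 tumors (columns), each row relative to its median over tumors, with colours limited at 5 on either side. Rows that are not members were picked after their values were seen. The blocks of epithelial and adipocyte genes below the top block (Krt8, Krt18, Krt7 and Esr1) are red in Control tumor 1 and SS tumors 1 and 2, the muscle genes Acta1, Myh4 and Ckm follow other tumors, and the hair keratins Krt71, Krt31 and Krt81 stand out in Control tumor 2.

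Read over the members, Control tumor 1 and SS tumors 1 and 2 were the 3 highest tumors for 6 of the 10 genes, namely Krt5, Krt14, Krt19, Cldn7, Foxa1 and Elf5. The same tumors were the 3 highest for 7.40% of all genes tested. This set of tumors was noticed after the values had been seen and crosses the treatment groups, so no test or average was made on it. Krt8, Krt18, Esr1 and Trp63 had other orders. The 3 tumors had 12314368, 13696665 and 8468914 counts in all, and the deepest libraries, Control tumors 2 and 3, were among those with low values.

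Of the 37 other luminal genes measured, 19 had the same 3 highest tumors, or 14 of the 28 tested, and of the 33 other basal and myoepithelial genes 13 did, or 12 of the 26 tested. The share of all genes above is over tested genes only. Of these, Grhl2 and Prlr were chosen after their values had been seen. Grhl2, which maintains epithelial junction genes, was at 4.98, 0 and 0 CPM in Control and at 2.98, 6.80 and 0 CPM in SS. The prolactin receptor gene Prlr was at 3.87, 0.0983 and 0 CPM in Control and at 3.70, 7.87 and 0 CPM in SS. Both were thus detected far above the floor in the tumors where Krt19 was high. Between 6 and 11 of the 37 luminal genes were at 0 in Control tumor 2, Control tumor 3 and SS tumor 3, against 0, 0 and 1 of them in Control tumor 1, SS tumor 1 and SS tumor 2. The summed level of the luminal list, which Krt7 and other abundant genes dominate, went only from 1002 to 1172 CPM.

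Adipocyte genes had the same order. For 11 of the 14 measured, and for each of the 9 tested, Control tumor 1 and SS tumors 1 and 2 were the 3 highest. Their summed level was 651, 80.8 and 39.3 CPM in Control and 231, 384 and 113 CPM in SS, with 0, 6 and 8 genes at 0 in Control and 1, 2 and 7 in SS. Plin1, which coats the lipid droplet, was at 37.8, 0.0983 and 0 CPM in Control and at 8.06, 14.7 and 0 CPM in SS. Pck1, the enzyme of glyceroneogenesis in fat, was at 58.3, 0 and 0 CPM in Control and at 33.1, 41.5 and 0 CPM in SS. The more abundant Car3 and Lpl parted the tumors less. Car3 was at 306, 30.3 and 9.48 CPM in Control and at 40.5, 167 and 37.2 CPM in SS. Lpl was at 156, 28.6 and 13.7 CPM in Control and at 95.2, 93.2 and 55.2 CPM in SS. These adipocyte levels moved with the 6 members, and their part in the members' levels was not tested. In bulk RNA, fewer cells of a type and less RNA per cell cannot be told apart, nor can transcripts of the injected line and of the host's gland.

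Lists for other tissues differed in how many genes had that order. None of 15 skeletal muscle genes measured had these 3 highest tumors, and their summed level was 6322, 13133 and 1780 CPM in Control and 409, 26328 and 14315 CPM in SS. Beside the 7.40% of all genes tested, the order was found for 0 of 14 muscle genes tested, 2 of 10 endothelial genes, 1 of 7 leukocyte genes, 0 of 17 fibroblast and mesenchymal genes and 0 of 4 genes of skin and hair follicle. Over genes measured, tested or not, it was found for 2 of 11 endothelial, 1 of 11 leukocyte, 1 of 20 mesenchymal and 2 of 15 skin and hair follicle genes. Endothelial genes summed to 93.5 to 226 CPM, leukocyte genes to 629 to 881 CPM and mesenchymal genes to 21441 to 33629 CPM. Of milk and secretory genes, 5 of the 15 listed were measured (Stat5b, Xdh, Stat5a, Btn1a1 and Mfge8), and 2 had the order, Btn1a1 (12.3, 0.590 and 0.164 CPM in Control, 2.18, 3.46 and 0.169 CPM in SS) and Stat5a, at 38.7 to 74.9 CPM.

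**Figure D3:**
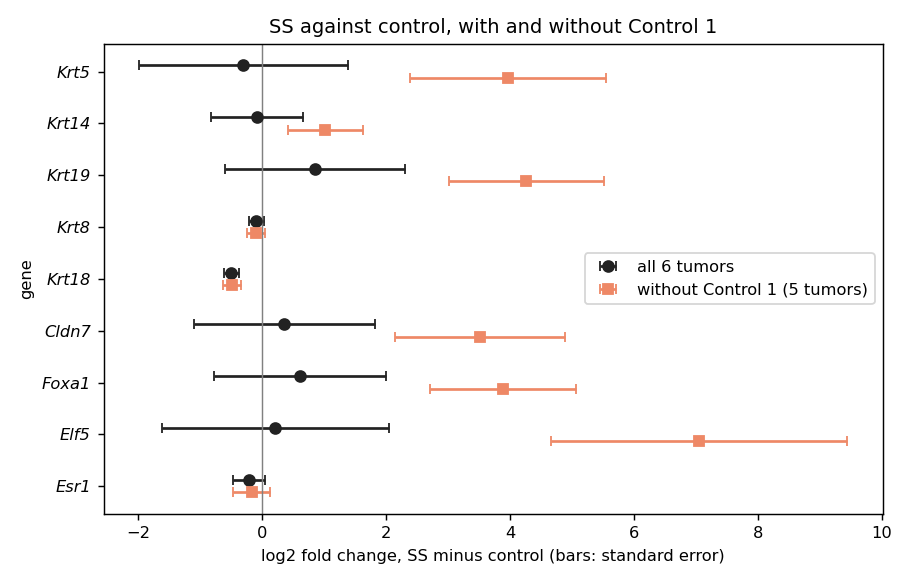
Log2 fold change of SS against Control (horizontal axis) for the 9 members tested, from all 6 tumors (black circles) and without Control tumor 1 (orange squares), with bars of 1 standard error. Krt8, Krt18 and Esr1 kept their place, whereas Krt5, Krt19, Cldn7 and Foxa1, which other left-out tumors moved less, went from between -0.30 and 0.85 to between 3.51 and 4.26. The square for Elf5 is a fit with no Control counts and is no bound.

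For SS against Control as a whole, 4 of the 9 tested members had a positive log2 fold change and the median was -0.083, beside -0.00135 over all genes tested. No member had an unadjusted p under 0.05 with SS higher, a call made for 3.19% of all genes, and no member had SS wholly above Control, which was seen for 6.51%. Since Control held 1 high tumor and SS held 2, the estimates moved with single tumors. Without SS tumor 2, Krt19 went to -0.27 and Cldn7 to -1.09, and without SS tumor 1, Elf5 went to -1.19. Without Control tumor 2 or 3, Cldn7 went to -0.18 and -0.20 and Elf5 to -0.42 and -0.41, and without SS tumor 3, Krt5 went to 0.28. The largest moves came without Control tumor 1, in edgeR's fit of the other 5 tumors. Krt19 had a log2 fold change of 4.26 (SE 1.25, adjusted p = 0.548), Krt5 of 3.96 (adjusted p = 0.615), Foxa1 of 3.89 (adjusted p = 0.548) and Cldn7 of 3.51 (adjusted p = 0.613). Elf5 had no Control counts left, so SS was at least 7.60-fold above the floor, and its fitted value of 7.05 (adjusted p = 0.559) is no bound. In that fit 5 members had an unadjusted p under 0.05 with SS higher, beside 4.56% of the 11228 genes tested. Control tumor 1 was the only Control tumor high for these 5 genes, and this had been seen beforehand, so the count is no test. With it left out, 0 members passed adjustment (smallest adjusted p = 0.548), and the members' median was 3.51, or 2.93 with Elf5 at its bound. With all 6 tumors the SE of each of these 5 genes was at least 1.38 on the log2 scale, so the data do not settle whether SS changed them.

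Between the groups, no gene of the other lists passed adjustment. Of the 28 other luminal genes tested, 18 had a positive log2 fold change, with a median of 0.40. Trps1, a GATA-family repressor, was higher in SS (373 ± 6.99 against 492 ± 12.4 CPM, SD, n = 3 each, log2 fold change 0.40, unadjusted p = 0.00149, adjusted p = 0.679). Sox9, a factor of luminal progenitors, had a lower mean in SS (132 ± 62.5 against 68.2 ± 15.5 CPM, unadjusted p = 0.0185, adjusted p = 0.771), and with Krt7 these were the only luminal genes under 0.05 before adjustment. Of 26 other basal genes tested, 1 was, Cxcl14, a chemokine gene, at 158 ± 72.7 CPM in Control and 63.3 ± 9.69 CPM in SS (log2 fold change -1.32, unadjusted p = 0.00502, adjusted p = 0.760), and the list's median was -0.12. The most abundant gene of that list, the smooth muscle actin gene Acta2, lay between 625 and 843 CPM with a log2 fold change of -0.011. The medians of the remaining lists were 0.28 for 9 adipocyte genes, 0.78 for 14 muscle genes, 0.46 for 10 endothelial genes, 0.11 for 7 leukocyte genes, -0.12 for 17 mesenchymal genes, 0.035 for 5 milk genes and 0.12 for 4 skin genes, with 0 genes past adjustment in each. Unadjusted p under 0.05 was reached in these by the endothelial genes Vwf and Esam and the leukocyte integrin gene Itgax, each higher in SS.

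**Figure D4:**
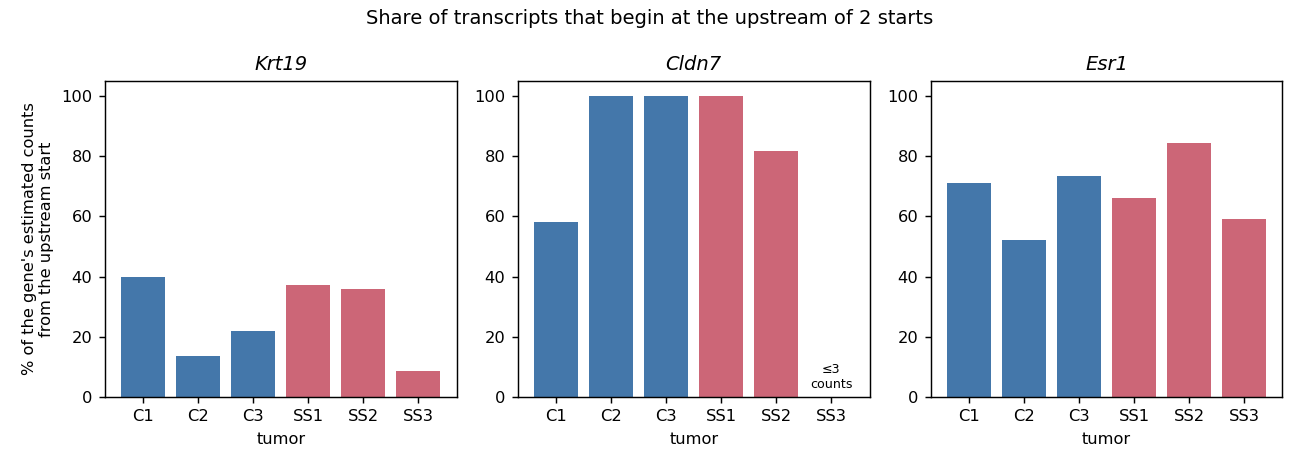
Percent of each gene's estimated counts assigned to transcripts from the upstream of 2 start sites (vertical axis, from 0) for Krt19, Cldn7 and Esr1 in the 3 Control tumors (blue) and the 3 SS tumors (red). For Krt19 the share was 35.8% to 39.8% in Control tumor 1, SS tumor 1 and SS tumor 2 and 8.73% to 21.7% in the others, and SS tumor 3 had too few Cldn7 counts for a share. The Esr1 share mostly follows a noncoding transcript and is not read as start use in each tumor.

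The estimated split of counts between transcript models differed between the tumors for some members. Krt19 has 2 starts 2227 bases apart, and the upstream start took 39.8%, 13.6% and 21.7% of its counts across Control 1, 2 and 3 and 37.1%, 35.8% and 8.73% across SS 1, 2 and 3. The 95% Wilson interval was 38.0% to 41.6% in Control tumor 1, 9.77% to 18.9% in Control tumor 2 and 5.08% to 14.7% in SS tumor 3, so the tumors with high Krt19 also had the larger upstream share. These intervals cover counting error only, and the counts per transcript are the authors' estimates from reads that fit more than 1 model.

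For Cldn7, whose starts are 642 bases apart, the upstream start held 58.0% of counts in Control tumor 1 (Wilson interval 47.8% to 67.1%), 81.8% in SS tumor 2 (71.3% to 89.4%) and 100% in SS tumor 1 (89.3% to 100%). Counts from the internal start, the one with 2 E-box matches and a GC box before it, were therefore assigned in Control tumor 1 and SS tumor 2, where Cldn7 was highest. The 7 and 6 counts of Control tumors 2 and 3 were all assigned upstream, with lower Wilson limits of 64.6% and 61.0%. Elf5, with starts 11970 bases apart, had 39.0% upstream in Control tumor 1 (24.8% to 55.1%). SS tumors 1 and 2 both had 88.6514%, from 31 and 7 counts (71.1% to 94.9% and 48.7% to 97.4%). The estimated split was identical in these 2 tumors, so their shares are not read as separate measurements of start use. Esr1 had 52.0% to 84.5% of counts assigned to its upstream start, with overlap between the groups. A noncoding transcript from that start held 8.08% to 67.4% of the counts. The main coding models, from both starts, kept the same proportions to each other in every tumor. The Esr1 share is therefore not read as start use in each tumor. An internal start of Krt14 took 17.8% of its counts in SS tumor 1 (13.7% to 22.5%) and at most 0.0856% elsewhere.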

How the data were processed

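RNA of 6 C0321 tumors, 3 Control and 3 SS, had been read by the authors as paired ends of 75 nucleotides, from polyA-selected stranded libraries. For 20648 RefSeq transcripts the authors deposited estimated counts that were not normalized. They had dropped entries of very low count, and the smallest sum over tumors was 10. Per the labels, reads were handled on mm10, and the submitters' processing notes name CASAVA 1.8.1, Bowtie2 2.2.5 and STAR 2.5.3a. The counting tool is not given in the sources used here. How the deposited values treat reads shared between similar keratins was not stated and could move counts between them.

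Counts were summed by symbol (21 symbols held as dates were restored from accessions) and rounded, giving 13730 genes. Totals ran from 8468914 to 24441522 counts, and 3 counts, the floor, were 0.123 to 0.358 CPM. SS was compared with Control by edgeR 4.0.16 in R 4.3.3 (TMM, filter on low counts, quasi-likelihood test, Benjamini-Hochberg adjustment across the 10902 genes that passed). A standard error is the log2 fold change over the square root of F. The SD of log2 CPM used a prior count of 2, and length was the union of basic GENCODE exons. Wilson intervals are at 95%. Scripts were tested on simulated data. Alternatives were other filters and scalings, DESeq2 1.42.0, limma 3.58.1 (voom), quantile normalization with a t statistic as in the study, a replicate block, transcripts in place of genes, and leaving out each tumor. An adipocyte score as covariate was chosen after seeing the data.

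The members and lists were chosen with earlier results of these data known. Named were all members, keratins over 10 CPM in some tumor, up to 5 genes of each list (highest mean CPM, or unadjusted p under 0.05), and the 5 genes nearest in pattern to Krt14, Krt8 and Cldn7. Named outside this rule, and chosen after their values were seen, were Grhl2, Prlr, Epcam, Cdh1, Cldn3, Cldn4, Pgr, Plin1, Zeb1, Zeb2, Cdh2, Twist2, Snai1, Thy1, Krt6b, Krt15, Krt16, Krt10, Krt33b, Krt35, Lfng and Erbb2, and the genes of the heat map that are not members. One gene that the rule names is not reported here. Sequences and positions are from RefSeq, GRCm38.p6, where 20538 transcripts matched by accession, 97.3% of them inside their gene.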

Additional observations from a re-analysis of the deposited data

How the results depend on the processing

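No member passed adjustment under any of 16 other settings, nor with the adipocyte score as a covariate, and under DESeq2 36 genes did where edgeR had 0. Krt18 was lower in SS in all 18 fits, with a log2 fold change of -0.57 to -0.43, an unadjusted p of 0.000765 to 0.0173 and an adjusted p of 0.0924 (DESeq2) to 0.960. Leaving out 1 tumor at a time gave 0 genes past adjustment in each case, 1 to 6 members with an unadjusted p under 0.05 (6 without Control tumor 1, otherwise 1), and a median of the tested members of -0.35 to 3.51, the highest without Control tumor 1. Over the same fits the log2 fold change spanned -0.93 to 3.96 for Krt5, -0.61 to 1.02 for Krt14, -0.27 to 4.26 for Krt19, -0.19 to 0.0011 for Krt8, -1.09 to 3.51 for Cldn7 and -1.19 to 7.05 for Elf5. These direction changes come with fewer tumors in the fit. Among the other settings, Krt14 turned to 0.27 with limma-voom, 0.094 with quantile normalization and the t statistic and 0.12 with the replicate block. Krt5 turned to 0.28 with the block and Cldn7 to -0.13 with the adipocyte score as a covariate, and the cause was not tested. Esr1 turned to 0.25 with transcripts in place of genes, where its most counted transcript, a noncoding one, was fitted in place of the sum. Without a change of sign, limma-voom, the t statistic and the block gave larger values for Krt19 (2.07, 1.71 and 1.64), Elf5 (2.02, 1.23 and 1.40), Foxa1 (1.74, 1.21 and 1.18) and Cldn7 (1.12, 0.68 and 0.60). With the adipocyte score, Krt5 was at -0.61, Krt14 at -0.47, Krt19 at 0.53, Foxa1 at 0.28 and Elf5 at 0.92. Of the 9 tested members 4 had a positive log2 fold change, 6 of 9 with the replicate block and 6 of 10 by the t statistic.

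With the replicate number as a block, 0 genes and 0 members passed adjustment, 1 member had an unadjusted p under 0.05 and the members' median was 0.28. These counts of calls were those of the main fit, while Krt5 and Krt14 changed sign, to 0.28 and 0.12. Deviations of same-numbered tumors correlated at 0.116, 0.0205 and 0.0767, so the numbers were not taken as pairs. The stricter filter of 50 counts in 3 tumors removed Cldn7 and Elf5, Trp63 was tested only without a filter and by the t statistic, and DESeq2 gave no p for Foxa1. Depth limits Elf5 and Trp63, which had at most 36 and 8 counts in a tumor.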

Other observations

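Beyond the members, 37 other keratin genes were measured, and 10 of them passed 10 CPM in some tumor. Several hair keratins were found almost wholly in Control tumor 2, though not all of them. Krt71, a keratin of the inner root sheath, was at 27.0 CPM there and at most 0.632 CPM elsewhere, and Krt25 and Krt73, of the same sheath, were at 11.8 and 10.5 CPM there and at most 0.237 and 0.290 CPM elsewhere. Krt81, Krt31 and Krt33a, keratins of the hair shaft, were at 15.5, 11.6 and 10.4 CPM in that tumor and had 0 counts in the other 5. Of 10 keratins with more than 90% of their CPM in 1 tumor and over 1 CPM there, 9 had it in Control tumor 2 and 1, Krt6b, in Control tumor 1. Other hair keratins were spread over tumors, such as Krt35, at 1.98, 1.87 and 0 CPM in Control and 0, 0 and 1.52 CPM in SS, and Krt33b, at 0.639 CPM in Control tumor 2 and 1.81 CPM in SS tumor 1. Control tumor 2 was among the low tumors for Krt5, Krt19 and Foxa1. The epidermal keratin Krt10 was highest in SS tumor 1, at 6.17 CPM, as was Krt15, at 9.94 CPM. These keratins were picked out after their values were seen.

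The genes whose pattern over the 6 tumors was nearest to a member are given by the root mean square difference of centred log2 CPM, as a description. Among those nearest to Krt14 were Pnpla2 (0.274), the lipase of fat cells, Pgm5 (0.286), Pparg (0.313), the factor of adipocyte formation, and Ptprd (0.333). Nearest to Cldn7 were Tox2 (0.215), Oxtr (0.255), the oxytocin receptor of myoepithelial cells, Msx2 (0.434), Gipc2 (0.445) and Scnn1a (0.449), a subunit of the epithelial sodium channel. Oxtr was at 3.32, 0.147 and 0 CPM in Control and at 1.02, 2.74 and 0 CPM in SS. Krt8 had closer neighbours, H2afy (0.0287), Ndufb6 (0.0365), Eif4a1 (0.0455), Kifc3 (0.0456) and Scfd1 (0.0466), all of them genes that differed little between tumors.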
